A study of Mus musculus with 10 samples.

Results

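The TEAD and Hippo pathway genes described here are Tead1, Tead2, Tead3, Tead4, Yap1, Wwtr1, Vgll3, Vgll4, Lats2 and Amotl2. They were taken by symbol from a table of ATAC-seq signal over genes, and all 10 were found, with 1 row each among 21965 genes. ATAC-seq cuts open chromatin with a transposase, so the signal at a gene measures how accessible its chromatin is and not how much RNA or protein it makes. The cells were mouse embryonic fibroblasts (MEFs) taken from E13.5 embryos whose transgene puts GFP under the Oct4 promoter. The labels give ICR as their strain and also call them OG2-MEFs.

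The MEFs were infected with pMXs retroviruses and kept in mouse embryonic stem cell medium. Oct4, Sox2 and Klf4 are factors used to reprogram somatic cells, and the series asks how Oct4 acts on closed chromatin during reprogramming. The SKO-L80A+Vc cells received Sox2, Klf4 and the Oct4 mutant L80A, in medium with 50 µg/ml vitamin C. The SKO-L80A+Ga cells are labelled as given the same factors and Gadd45a, a DNA damage and demethylation-linked protein, without vitamin C. The SKO-L80A cells received Sox2, Klf4 and the mutant alone. The SKO+shBrg1 cells received Sox2, Klf4, wild-type Oct4 and a short hairpin against Brg1, the ATPase of a chromatin remodelling complex. The SKO cells received Sox2, Klf4 and wild-type Oct4. Other cells received Klf4, Sox2 or Oct4-L80A alone or are labelled as given Oct4 alone, and the Flag cells received a control virus. About 50000 cells went into each library. There was 1 library per condition, with 2 columns of values each, so no difference below has a replicate check and no p-value is given. The sources used here do not say how the 2 columns relate, and they were counted as 1 sample.

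In the Hippo pathway, the kinases Lats1 and Lats2 phosphorylate the coactivators Yap1 and Taz (the product of Wwtr1) and keep them in the cytoplasm. Unphosphorylated Yap1 and Taz enter the nucleus and bind the TEAD proteins, which hold the DNA. The vestigial-like proteins Vgll3 and Vgll4 also bind TEADs, and Vgll4 is known to compete with Yap1. Amotl2, an angiomotin, binds Yap1 at cell junctions, and both Amotl2 and Lats2 are known as feedback targets of Yap1 and Taz. In fibroblasts these proteins respond to cell spreading and matrix stiffness, and TEAD motifs are common in fibroblast enhancers.

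The 4 sequences shown here let the members' own promoters be read for the TEAD motif. RefSeq windows of 250 bases before an annotated start (GRCm38.p6) were found for 8 of the 10 members, in 12 windows. Tead1 and Tead4 had no entry. The core of the TEAD motif, GGAATG or CATTCC on the other strand, was present in a window of 6 of the 8, namely Tead3, Yap1, Wwtr1, Vgll3, Vgll4 and Amotl2. Of 27025 genes with windows, 14.4% held it, and of 32851 windows 12.6% did. Tead3 has 3 windows and Wwtr1 and Lats2 have 2 each, which gives those genes more bases to search. The windows shown run 5′ to 3′ on the gene's strand, with the TEAD core in capitals. The stretches printed lie upstream of each gene's outermost annotated start, at chr16:65814939-65815188 on the plus strand for Vgll3 and on the minus strand at chr17:28350952-28351017 for Tead3, chr9:8004702-8004767 for Yap1 and chr3:57576011-57576076 for Wwtr1.
Vgll3: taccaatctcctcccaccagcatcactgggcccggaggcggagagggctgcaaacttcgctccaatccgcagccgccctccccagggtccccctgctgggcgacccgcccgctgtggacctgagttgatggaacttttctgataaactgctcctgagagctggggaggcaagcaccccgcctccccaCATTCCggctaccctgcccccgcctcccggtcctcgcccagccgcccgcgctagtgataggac
Tead3: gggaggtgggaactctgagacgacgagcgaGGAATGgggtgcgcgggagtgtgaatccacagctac
Yap1: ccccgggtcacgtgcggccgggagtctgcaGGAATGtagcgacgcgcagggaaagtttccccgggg
Wwtr1: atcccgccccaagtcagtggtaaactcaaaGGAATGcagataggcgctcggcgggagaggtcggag
The core stood 57 bases before the start of Vgll3, 176 before that of Tead3, 135 before an annotated start just inside Yap1 and 130 before the outer start of Wwtr1. In Vgll3 it reads on the opposite strand. In the other 3 it reads on the gene's own strand. The matches of Vgll4 and Amotl2, and a further pair in Tead3, lie inside the annotated gene, before an inner start.

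AP-1, POU and SOX motifs were less frequent in these windows than the TEAD core, and the KLF motif was nearly as frequent. The AP-1 motif TGANTCA and the POU motif ATGCNAAT were found in none of the 8 members, against 7.82% and 3.27% of all genes. The SOX motif ACAANGG was found in Tead3 alone, against 13.1% of all genes. The KLF motif GGGNGTG was found in Tead3, Wwtr1, Vgll4 and Lats2, against 28.8% of all genes. It was in 7 of the 12 member windows, some of which overlap, against 26.1% of all windows. The TEAD core was in 8 of the 12. No match of another motif in these windows shared a base with a TEAD core. All motifs were read on both strands. GC content was 44.8% in the inner window of Lats2 and 57.2% to 76.8% in all other member windows, against a median of 52.4% over all windows. What part GC content has in the motif shares was not tested. A match describes letters in the window and nothing else.

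The factor genes were used to check the labels. The Sox2 gene had signal of 75.5 and 87.1 after Sox2 virus and 2.73 and 5.12 after Flag virus. The Klf4 gene had 166.0 and 146.0 after Klf4 virus and 12.6 and 17.8 after Flag virus. The library labelled Oct4 had Pou5f1 (the gene of Oct4) at 30.8 and 24.2 but also Sox2 at 62.9 and 55.2, which goes against its label, so it is called the library labelled Oct4. The Gadd45a gene had 36.6 and 41.5 in SKO-L80A+Ga, against 37.3 and 52.1 in SKO-L80A, with scaled means of 36.7 and 34.6, and SKO had 36.8. The table thus shows no gain at Gadd45a like those at Sox2 and Klf4, and the Gadd45a label is not borne out by it. Smarca4, the gene of Brg1, had scaled means of 14.7 in SKO+shBrg1 and 13.4 in SKO, which does not check a hairpin that acts on RNA. The library labelled Oct4 is the only one of that condition, and no result that rests on it can be given without it. Fibroblast markers had a summed scaled signal of 128.0 to 167.0 in the libraries with factors and 178.0 and 184.0 in Flag, and 7 to 9 of the 10 genes reached the minimum signal in every library. None of the 6 pluripotent cell markers reached it in any library. Column sums ran over a range of 112439 to 370390, and the number of reads behind them is unknown.

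Values are given on 3 scales. Signal is the deposited value. Scaled signal is the same after each column was divided by the median of its ratio to each gene's mean, so that conditions can be set side by side. A relative difference is the difference of log2(signal + 0.138) between both conditions, averaged over both columns, less the median of all genes, which was 0.50 higher in SKO than in Flag. The sources used here do not say whether the density is per length, so levels are ordered between conditions of a gene and not between genes.

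None of the 10 members differed 2-fold in any of the 14 comparisons, taking a gene as past the size rule when the relative difference reached 2-fold or more and the higher condition reached 6.92, the median of the table. Shares of genes here and in the comparisons that follow are of the genes that reached this minimum in the comparison. The share past the 2-fold rule was small too. Against Flag it was 1.94% in SKO-L80A+Vc, 1.75% in SKO-L80A+Ga, 2.45% in SKO-L80A, 2.47% in SKO+shBrg1 and 2.51% in SKO. It was 1.74% in Klf4, 0.347% in Sox2, 0.0383% in Oct4-L80A and 0.504% in the library labelled Oct4. A count of 0 of 10 is near those shares. Without taking off the shift of all genes, 3 members passed the rule in SKO against Flag, 2 in SKO-L80A and 5 in SKO+shBrg1, all higher, as were 11.0%, 11.0% and 17.4% of genes in the same order. With the first column alone, Tead3 passed it in SKO-L80A, where 3.05% of genes were higher, and in SKO+shBrg1, where 3.44% were. The members' median relative difference between SKO and Flag was 0.28, against 0.10 for the 12475 genes that reached the minimum signal. At a smaller size, 1.5-fold, Vgll3 alone was higher in SKO, where 8.01% of genes were. Vgll3 and Tead3 were higher by that much in SKO-L80A+Vc (5.45% of genes), SKO-L80A+Ga (5.81%), SKO-L80A (7.76%) and SKO+shBrg1 (8.41%). No member was lower by 1.5-fold in any comparison. The 9 comparisons with Flag share its library, so their values are not independent of each other.

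**Figure D1:**
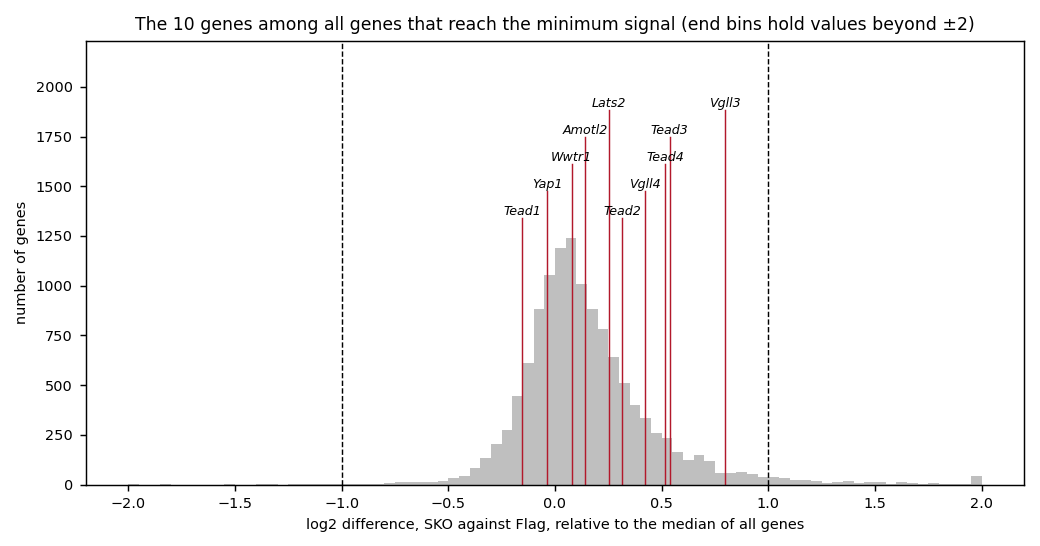
Relative log2 difference between SKO and Flag (x axis) for all genes that reached the minimum signal (grey bars, number of genes on the y axis), with the 10 members as red lines and 2-fold as dashed lines. Vgll3 at 0.80 lies farthest right of the members, Tead1 at -0.15 farthest left, and all 10 lie between the dashed lines.

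Vgll3, on chromosome 16 (chr16:65815189-65866368), encodes a TEAD cofactor that promotes myofibroblast and mesenchymal programmes. Its signal was 31.6 and 31.7 in SKO-L80A+Vc, 38.1 and 38.3 in SKO-L80A+Ga, 43.8 and 51.3 in SKO-L80A, 56.5 and 41.7 in SKO+shBrg1, and for SKO 56.0 and 46.3. It was 24.3 and 25.0 in Klf4, 16.3 and 25.2 in Sox2, 12.1 and 27.4 in Oct4-L80A, 28.7 and 35.7 in the library labelled Oct4, and for Flag 15.1 and 28.1. After scaling, the lowest column of the 5 combined-factor libraries, 33.3, lay above 32.6, the highest column of the others, which was in the library labelled Oct4. The scaled mean was 40.1 in SKO and 23.5 in Flag, a relative difference of 0.80 (1.74-fold), and 95.9% of genes that reached the minimum lay below it. Over the alternatives other than leaving the shift of all genes in place, this difference was 0.63 to 0.91.

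Among the other comparisons with Flag, Vgll3 differed by 0.59 in SKO-L80A+Vc, 0.64 in SKO-L80A+Ga, 0.68 in SKO-L80A and 0.62 in SKO+shBrg1. The library labelled Oct4 stood between, at 0.45, where 95.1% of genes lay below. In Oct4-L80A the difference was -0.01. With Klf4 alone it was 0.24 but 0.56 in the first column and -0.09 in the second, and with Sox2 alone 0.07, so these values had no steady sign. In the order of scaled means from SKO down to Flag, the step from the library labelled Oct4 to Klf4, 0.21, was the one step larger than the SD between the 2 columns of a condition, 0.12 on the log2 scale for this gene. Over all members, 9 of 90 such steps between neighbouring conditions were larger than the gene's own SD between columns.

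Vgll4, on chromosome 6 (chr6:114860621-114970007), encodes the vestigial-like protein that competes with Yap1 for TEADs. It was highest in SKO-L80A, at a scaled mean of 17.7, and lowest in Flag, at 13.0. Its columns were 18.9 and 16.5 in SKO-L80A, 17.2 and 16.9 in SKO, and 11.9 and 14.2 in Flag after scaling. Relative differences from Flag were 0.46 in SKO-L80A, 0.42 in SKO and 0.39 in SKO+shBrg1, but 0.28 in SKO-L80A+Vc, where the columns overlapped those of Flag. Atg7, an autophagy gene, lies 17 bases beyond the downstream end of Vgll4, and what part of the signal is shared was not tested.

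**Figure D2:**
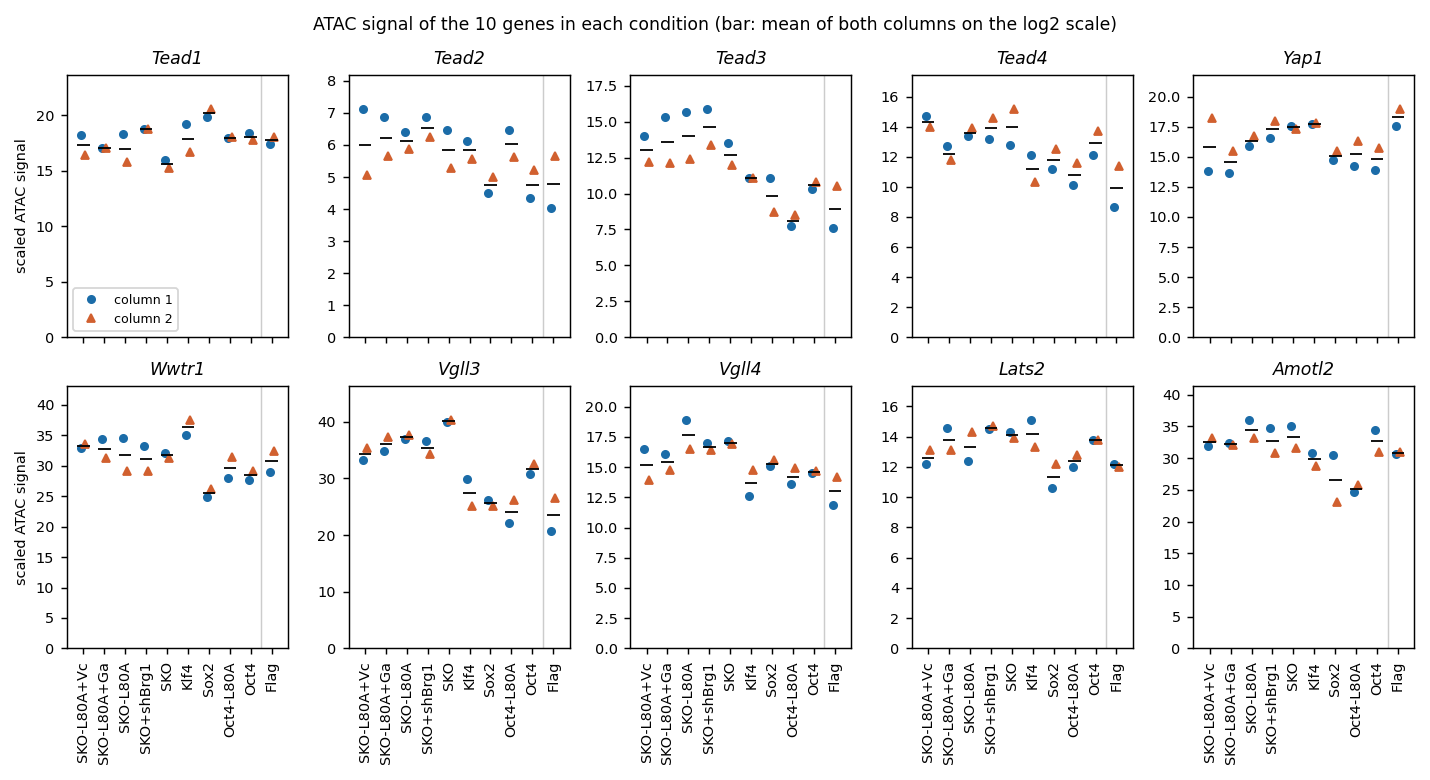
Scaled ATAC signal (y axis, from 0, a range of its own for each gene) in each condition (x axis, Flag at the right) for the 10 genes, with both columns of a condition as circle and triangle and their mean as a bar. Vgll3 lies above 33 in all columns of the 5 combined-factor libraries and at 20.8 and 26.6 in Flag, while Yap1 is highest in Flag at a mean of 18.3.

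The 4 TEAD genes encode the DNA-binding partners of Yap1 and Taz, and their accessibility differed in pattern. Tead3 and Tead4 were higher in the combined-factor libraries than in Flag, Tead2 less steadily, and Tead1 was nearly level. Tead3 (chr17:28331671-28350805) had 13.3 and 10.9 in SKO-L80A+Vc, 16.8 and 12.4 in SKO-L80A+Ga, 18.7 and 17.0 in SKO-L80A, 24.7 and 16.3 in SKO+shBrg1, and for SKO 19.0 and 13.8. It had 9.02 and 11.1 in Klf4, 6.85 and 8.7 in Sox2, 4.15 and 8.94 in Oct4-L80A, 9.58 and 11.9 in the library labelled Oct4, and for Flag 5.5 and 11.1. After scaling all 10 columns of the combined-factor libraries were at 12.0 or above and all others at 11.1 or below. The range of scaled means, 14.6 in SKO+shBrg1 to 8.1 in Oct4-L80A, spanned 1.79-fold, the widest of the 10 genes.

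The size of the Tead3 difference depended on the column. Relative to Flag it was 0.59 in SKO-L80A+Vc, 0.63 in SKO-L80A+Ga, 0.66 in SKO-L80A, 0.73 in SKO+shBrg1 and 0.54 in SKO. In SKO-L80A the first columns gave 1.01 and the second 0.30, and in SKO+shBrg1 1.02 and 0.39. For Sox2 alone the columns gave 0.46 and -0.31, opposite signs. Scaled Flag columns for Tead3 were 7.63 and 10.5, a wider gap than for most members. Tead3 lies 638 bases from Rpl10a, a ribosomal protein gene, and 710 from Tulp1. Rpl10a differed by 0.03 between SKO and Flag and by 0.08 between SKO+shBrg1 and Flag. Tulp1 did not reach the minimum signal and differed by 0.29 and 0.51. What part of the Tead3 signal comes from shared regions was not tested.

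Tead4 (chr6:128227143-128300813) is known in mouse embryos for specifying trophectoderm. Its signal was 20.5 and 17.8 in SKO+shBrg1, 18.1 and 17.5 in SKO, 5.43 and 12.1 in Oct4-L80A, 11.3 and 15.0 in the library labelled Oct4, and for Flag 6.25 and 12.1. Flag had the lowest scaled mean of the 10 conditions, 9.94, with columns 8.66 and 11.4. Relative differences from Flag were 0.57 in SKO-L80A+Vc, 0.33 in SKO-L80A+Ga, 0.47 in SKO-L80A, 0.51 in SKO+shBrg1 and 0.52 in SKO. The library labelled Oct4 had 0.39, and Oct4-L80A had 0.07. In SKO-L80A+Ga the columns gave 0.54 and 0.03, and the second is close to no difference.

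Tead2 (chr7:45215792-45233468), known as the TEAD of early embryos, reached the minimum signal in 6 of its 20 columns. Its scaled mean was 6.54 in SKO+shBrg1, 4.75 in Sox2 and 4.78 in Flag. The difference from Flag was 0.31 in SKO, but 0.64 in the first columns and -0.06 in the second, and Flag itself had scaled columns of 4.04 and 5.65. The steps between its conditions were within the SD between columns, 0.20, except that from Klf4 to Flag, 0.28. Cd37, a leukocyte tetraspanin gene, lies 164 bases beyond its downstream end.

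Tead1 (chr7:112679356-112906784), the TEAD known for heart and muscle genes, was the flattest of the 4. Its scaled means ran from 15.6 in SKO to 20.2 in Sox2, and Flag stood at 17.8. The difference from Flag was -0.15 in SKO, where both scaled columns (16.0 and 15.3) lay under those of Flag (17.4 and 18.1). It was 0.12 in Sox2 and 0.11 in SKO+shBrg1.

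Yap1 and Wwtr1, the coactivators, did not follow Vgll3 and Tead3. Yap1 (chr9:7931999-8004638) had its lowest scaled mean in SKO-L80A+Ga, 14.6, and its highest in Flag, 18.3, which is 1.25-fold from end to end. No step between its neighbouring conditions was larger than its SD between columns, 0.12. Its signal was 15.1 and 15.9 in SKO-L80A+Ga, 24.8 and 19.9 in SKO, 14.4 and 17.6 in Klf4, 9.08 and 15.5 in Sox2, 7.71 and 17.1 in Oct4-L80A, 12.9 and 17.2 in the library labelled Oct4, and for Flag 12.8 and 20.1. Relative differences from Flag were -0.34 in Sox2, -0.31 in Oct4-L80A, -0.28 in the library labelled Oct4 and -0.29 in SKO-L80A+Ga. In each of those 4 both scaled columns lay under both Flag columns. The share of all genes that did so is not given for these 4, and in SKO that share changed with how columns were scaled. For the library labelled Oct4 only 3.65% of genes lay below Yap1, for SKO-L80A+Ga 4.32% and for Sox2 14.9%. In SKO and in Klf4 the differences from Flag were -0.04 and -0.03, close to the median of all genes, and the Klf4 value was above 0 in the first column, under quantile normalisation and with the lowess trend removed. With the shift of all genes left in, Yap1 differed by 0.47 in SKO, so its sign there holds relative to other genes only.

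Wwtr1 (chr3:57455644-57575910) had its highest scaled mean with Klf4 alone, 36.3, and its lowest with Sox2 alone, 25.5, against 30.7 in Flag. Its scaled columns were 35.1 and 37.5 in Klf4, 24.9 and 26.1 in Sox2 and 29.0 and 32.4 in Flag, so the 3 libraries did not overlap on that scale. The relative difference was 0.25 in Klf4 and -0.33 in Sox2. Over the alternatives other than leaving the shift of all genes in place, it was 0.19 to 0.48 in Klf4 and -0.36 to -0.10 in Sox2. In Sox2, 16.9% of genes that reached the minimum lay below Wwtr1, and their median was -0.14. In the 5 combined-factor libraries the relative difference of Wwtr1 was 0.05 to 0.17. The steps from Klf4 to the next condition, 0.13, and from the library labelled Oct4 to Sox2, 0.15, were larger than the SD between columns, 0.10.

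Of the negative regulators, Lats2 ranged over 1.28-fold and Amotl2 over 1.37-fold in scaled mean. Lats2 (chr14:57689662-57746212) had scaled columns of 14.5 and 14.7 in SKO+shBrg1, 14.3 and 13.9 in SKO, 10.6 and 12.2 in Sox2, and 12.2 and 12.0 in Flag. The differences from Flag were 0.30 in SKO+shBrg1, 0.25 in SKO, 0.24 in Klf4 and -0.16 in Sox2. The Sox2 value is near -0.14, the median there of genes that reached the minimum signal, and 46.6% of them lay below it. An annotated gene, Gm52140, overlaps the upstream side of Lats2 in RefSeq.

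Amotl2 (chr9:102717091-102733418) had scaled means of 34.5 in SKO-L80A, 33.3 in SKO, 26.5 in Sox2, 25.2 in Oct4-L80A and 30.8 in Flag. Its difference from Flag was -0.34 in Oct4-L80A, with both columns (24.7 and 25.7) under those of Flag (30.7 and 31.0), and 0.09 to 0.18 in the combined-factor libraries. In Sox2 the columns stood apart, at 30.5 and 23.0, and the difference of -0.28 rests mainly on the second. Under quantile normalisation it was -0.09, and with the lowess trend removed -0.06.

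**Figure D3:**
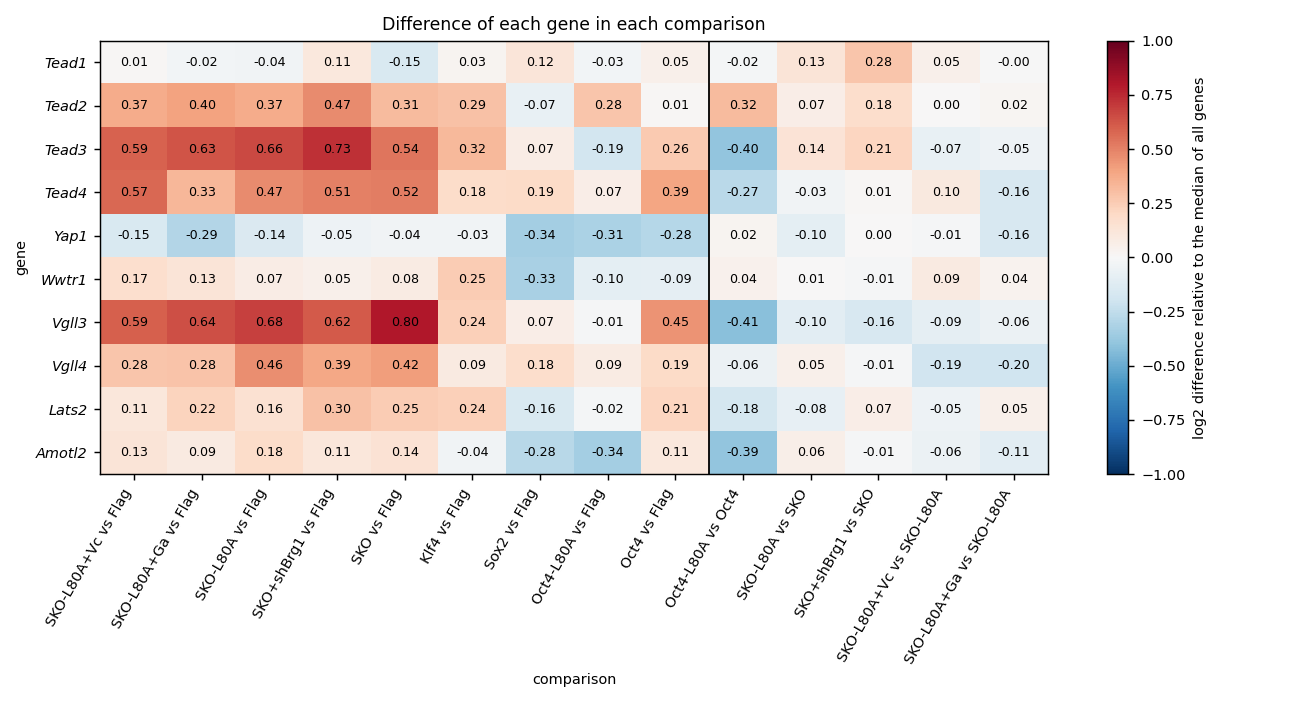
Relative log2 difference (colour and printed value, red higher and blue lower in the condition named first) of each gene (rows) in the 14 comparisons (columns, those with Flag left of the line). Vgll3, Tead3 and Tead4 are positive in the 5 combined-factor columns, Yap1 is negative in all 9 comparisons with Flag (for Klf4 with another sign in the first column, under quantile normalisation and with the lowess trend removed, and above 0 in SKO, SKO-L80A and SKO+shBrg1 without the shift of all genes taken off), and no value passes 1 or -1.

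Counting members whose 2 columns do not overlap between SKO and Flag gave 6 higher (Tead3, Tead4, Vgll3, Vgll4, Lats2 and Amotl2) and 2 lower (Tead1 and Yap1). Of genes that reached the minimum, 32.0% were higher by that rule and 13.1% lower. With column medians taken off in place of that scaling, 4 were higher (Tead3, Tead4, Vgll3 and Vgll4; 16.2% of genes) and 3 lower (Tead1, Yap1 and Wwtr1; 42.5% of genes). Tead3, Tead4, Vgll3 and Lats2 were above Flag without overlap in each of the 5 combined-factor libraries. So were 13.2% of the 11447 genes whose mean over all columns reached the minimum. For Lats2 the margin was small. Its lower scaled column was 12.2 in SKO-L80A+Vc and 12.4 in SKO-L80A, and its higher column in Flag was 12.2. With column medians taken off, Tead3 and Vgll3 met that joint rule, as did 6.88% of the same 11447 genes. These 5 comparisons share the Flag library, and its 2 columns decide both counts.

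Between conditions other than Flag, 0 of 10 members passed the size rule, where 0.41% of genes did for Oct4-L80A against the library labelled Oct4, 0.0158% for SKO-L80A against SKO, 0.00781% for SKO+shBrg1 against SKO, 0.016% for SKO-L80A+Vc against SKO-L80A and 0.0% for SKO-L80A+Ga against SKO-L80A. The largest member differences of these 5 comparisons were between Oct4-L80A and the library labelled Oct4. Vgll3 differed by -0.41, Tead3 by -0.40, Amotl2 by -0.39 and Tead4 by -0.27, and each was lower in both columns. Of genes that reached the minimum, 5.25% lay below Vgll3, 6.0% below Tead3 and 6.25% below Amotl2. Tead2 differed by 0.32, with 99.2% of genes below it, though it is under the minimum signal in both libraries. Because Sox2 signal was 2.37 and 5.47 in Oct4-L80A but 62.9 and 55.2 in the other library, the mutation and Sox2 cannot be told apart in this comparison.

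By their labels, the combined-factor libraries compare the mutation, the hairpin, vitamin C and Gadd45a on a background of Sox2 and Klf4. Among them the member differences lay between -0.20 and 0.28. Between SKO-L80A and SKO the differences ran from -0.10 (Vgll3) to 0.14 (Tead3). Between SKO+shBrg1 and SKO, Tead1 differed by 0.28, with scaled columns of 18.8 and 18.8 in SKO+shBrg1 against 16.0 and 15.3 in SKO. Tead3 differed there by 0.21 and Vgll3 by -0.16. Between SKO-L80A+Vc and SKO-L80A they ran from -0.19 (Vgll4) to 0.10 (Tead4). Between SKO-L80A+Ga and SKO-L80A, Vgll4 differed by -0.20, Yap1 and Tead4 by -0.16 each, and Lats2 by 0.05. With 1 library each, these values cannot be set against the spread between samples. The factor genes also differed among these libraries. Scaled means of Sox2 were 51.7 in SKO, 35.1 in SKO-L80A, 37.7 in SKO+shBrg1, 24.1 in SKO-L80A+Vc and 26.6 in SKO-L80A+Ga. Those of Pou5f1 were 7.67, 16.2, 5.43, 10.3 and 11.7 in the same order, and those of Klf4 56.9, 56.9, 48.1, 43.1 and 42.8. The labelled treatments and these differences cannot be told apart.

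Other genes of the pathway gave no call either. Of 25 further kinases, scaffolds and upstream regulators, 8 further TEAD cofactors and partners and 24 target genes of Yap1 and Taz (55 distinct genes), 0 passed the size rule in either direction in any of the 14 comparisons. Among those that reached the minimum signal, relative differences ran from -0.79 to 0.89, both in Igfbp3. Igfbp3, an IGF-binding protein on the target list, differed from Flag by 0.89 in SKO+shBrg1, 0.81 in SKO and 0.80 in the library labelled Oct4. It differed by -0.79 between Oct4-L80A and the library labelled Oct4. In SKO against Flag the median was 0.03 over the target list, 0.06 over the kinase list and 0.10 over the further cofactors and partners. The median of all genes is 0 by construction, and that of the genes that reached the minimum signal was 0.10. On the lists, 22 of 24, 24 of 25 and 6 of 8 genes reached it, in the same order.

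By relative difference, Ccn1 and Ccn2, the classical target genes, lay below Flag where Vgll3 lay above it. Ccn1 (Cyr61 in the table), a matricellular protein gene used as a readout of Yap1 activity, had signal of 35.4 and 24.3 in SKO, 17.1 and 16.4 in Sox2, 10.5 and 22.7 in Oct4-L80A, and 22.7 and 31.3 in Flag. Relative to the median of all genes, its difference from Flag was below 0 in all 9 conditions, from -0.62 in Oct4-L80A to -0.37 in SKO. Ccn2 (Ctgf in the table) differed by -0.61 in Sox2, -0.30 in SKO, -0.11 in SKO-L80A+Vc and -0.10 in Klf4. In SKO-L80A+Vc and Klf4 its columns overlapped those of Flag. Ankrd1 stayed under the minimum signal in all 10 conditions, and Axl, whose product is a receptor tyrosine kinase, reached it in SKO-L80A and SKO+shBrg1 by its mean over columns, with scaled means of 6.61 and 6.26 there and 3.97 in Flag. Ptpn14, a phosphatase that binds Yap1, was 0.41 to 0.45 above Flag in the 5 combined-factor libraries and differed by -0.34 in Sox2. Lats1, the other Lats kinase, differed by -0.43 in Sox2 and -0.02 in SKO. Nf2, the upstream scaffold merlin, differed by -0.25 in Sox2 and 0.04 in SKO, and Amot, an angiomotin, by -0.21 in Sox2 and 0.23 in SKO. In Sox2 against Flag the median of genes that reached the minimum signal was itself -0.14.

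Signals of other cell type markers also differed between these libraries. The 7 epithelial markers summed to 21.8 to 28.6 in the combined-factor libraries, 20.6 and 23.5 in Klf4, and 13.9 and 13.1 in Flag on the scaled signal. Of these, 1 to 2 genes reached the minimum in the combined-factor libraries and 0 in Flag. The 5 blood cell markers summed to 16.8 to 24.2 in the combined-factor libraries and 13.6 and 13.4 in Flag. The 4 neural markers summed to 27.8 to 35.4 in the combined-factor libraries and 21.4 and 24.2 in Flag. The 4 endothelial markers summed to 10.9 to 15.3 in the combined-factor libraries and 11.6 and 10.8 in Flag. No marker was at 0. Fibroblast markers summed to 135.0 to 154.0 in the combined-factor libraries, against 178.0 and 184.0 in Flag. Their part in the differences of Vgll3, Tead3, Tead4, Vgll4 and Yap1 was not tested. In such bulk samples a change in the share of cells and a change in each cell's chromatin cannot be told apart.

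Among the other members, Tead3, Tead4, Vgll4 and Amotl2 had the patterns over the 10 conditions most like that of Vgll3. Pearson's r of log2 scaled signal was 0.91 between Vgll3 and Tead3, 0.89 between Vgll3 and Tead4, 0.83 between Vgll3 and Vgll4 and 0.80 between Vgll3 and Amotl2. Between Yap1 and Vgll3 it was -0.04, and between Tead1 and Vgll3 -0.60. Of 45 pairs, 18 had an r of 0.5 or more and 3 of -0.5 or less, with a median of 0.44. The same shares over all gene pairs were not counted, so these counts show nothing particular to the members. The 10 points share the cells, the scaling and, in 5 of them, Sox2 and Klf4, so the values describe these libraries and have no test.

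**Figure D4:**
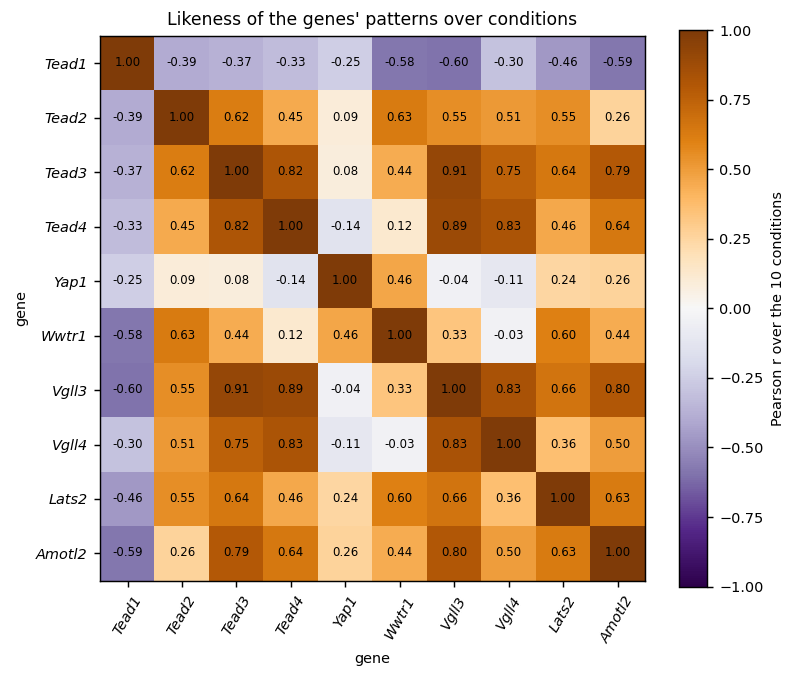
Pearson's r (colour and printed value) between each pair of the 10 genes over the 10 conditions. Vgll3, Tead3, Tead4 and Vgll4 share high values, 0.75 to 0.91, and Yap1 with Vgll3 is at -0.04.

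The genes most like each member over the 10 conditions were taken from all genes whose mean signal reached the median. Arhgap23 (r = 0.99) and Lrrfip1 (0.99) were most like Tead3, Ctxn1 and Timm44 (0.98 each) most like Vgll3, and Gsap (0.99) and Dnajb3 (0.98) most like Tead4. Nxpe3 (0.97) and Bcat2 (0.96) followed Vgll4. Faf1 (0.93) and Pet117 (0.89) followed Yap1, and Zfp62 (0.97) and Fhit (0.96) followed Wwtr1. For Tead1 they were Prr14l (0.90) and Fam69a (0.88), for Tead2 Gramd1a and Ifi35 (0.93 each), for Lats2 Gm49361 (0.95) and Scrib (0.94), and for Amotl2 Mt2 and Letm2 (0.96 each). The 10 members themselves were left out of that search.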

How the data were processed

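The table, deposited by the authors, gives an ATAC signal (density) for 21965 genes in 20 columns, 2 for each of 10 libraries. The submitters' processing notes name build mm10 and, with no role, DESeq2 1.22.2, bedtools 2.25.0, deepTools, MACS2 2.1.0, Picard, SAMtools 1.3.1, Bowtie2 2.2.5, cutadapt 1.13 and Trimmomatic 0.35. The sources used here do not give the window counted or the scaling. Without read counts the depth is unknown, so no interval for counting error is given.

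The members and lists were chosen with earlier results of these data known. Differences are means over both columns of log2(signal + 0.138), the 10th percentile of values above 0, less the median of all genes. A 2-fold rule with a minimum signal of 6.92 made the calls. The 14 comparisons had no test, since each condition is 1 library. Named genes were the 10 members, list genes past the size rule, 8 pathway genes and 5 factor genes kept whatever their values, and the 2 genes most like each member. Genes at the ends of a list's range (Igfbp3) and the neighbours of Tead3 were named after their values were seen. Columns were put on one scale after column medians were seen to give other signs than the relative differences. Coordinates and promoters come from RefSeq (GRCm38.p6, the assembly of mm10). The code was checked on simulated data with the same noise and the same shift for all genes, a simpler setting than these columns. That check does not measure the error of the values given here. Python 3.11.15, NumPy 2.4.6, pandas 2.3.3, SciPy 1.17.1, statsmodels 0.14.6 and matplotlib 3.10.9 were used. Alternatives tried were pseudocounts changed by 4 times either way, no minimum, no centring, quantile normalisation, removal of a lowess trend (fraction 0.3, 3 iterations) and each column alone.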

Additional observations from a re-analysis of the deposited data

How the results depend on the processing

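The count of members past the 2-fold rule was 0 in all 14 comparisons and stayed 0 under both other pseudocounts, no minimum signal, quantile normalisation, the lowess trend and the second column alone. Without taking off the shift of all genes, 3 members passed it in SKO against Flag (Tead3, Tead4 and Vgll3), 2 in SKO-L80A (Tead3 and Vgll3) and 5 in SKO+shBrg1 (Tead2, Tead3, Tead4, Vgll3 and Vgll4), all higher. Of genes that reached the minimum, 11.0%, 11.0% and 17.4% were higher by that rule in the same order. In those libraries the median of all genes was itself 0.50, 0.52 and 0.62 above Flag. With the first column alone, 1 member (Tead3) passed it in SKO-L80A and 1 (Tead3) in SKO+shBrg1, where 3.05% and 3.44% of genes were higher. Of the 140 single differences, 24 changed sign without centring, 19 under quantile normalisation, 18 under the lowess trend, 13 with the first column alone, 31 with the second, 1 with the larger and 3 with the smaller pseudocount. The cause was not tested. For Klf4 against Flag, the sign for Tead1, Tead2, Tead4 and Vgll3 turned with the second column alone (for Tead1 also with the smaller pseudocount), and that for Amotl2 and Yap1 with the first column alone, quantile normalisation and the lowess trend. Counts of members whose columns do not overlap are given for SKO and the joint rule only, since they changed with how columns were scaled. No paired analysis was possible because each condition has 1 library. Depth is unknown, and with 1 library per condition no difference can be set against the spread between samples.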
